A study of Mus musculus with 6 samples.

Results

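The genes described here encode the oxygen-sensing core of the hypoxia-inducible factor (HIF) pathway. They were taken by symbol from the deposited expression table, and of the 9 symbols named (Hif1a, Epas1, Hif3a, Arnt, Arnt2, Egln1, Egln3, Vhl and Hif1an) with Egln2 added, 10 in all, 7 were among the 7340 listed genes. Hif3a, Egln2 and Hif1an had no entry there and were not analysed here. The samples were 6 wild-type (WT) mouse kidneys profiled by RNA sequencing, 3 given MK-8617 with IRI (MK-8617 kidneys) and 3 given IRI without it (IRI kidneys), where IRI is ischaemia-reperfusion injury, the interruption and return of the blood supply. MK-8617 is a small-molecule inhibitor of the HIF prolyl hydroxylases. Every sample carried the injury, so each difference below sets injured kidneys with the inhibitor against injured kidneys without it, and no uninjured kidney was analysed here. The labels give no strain, age, sex, dose or time, and the table's column names carry a 1d tag. For 2 of the 3 MK-8617 kidneys the treatment entry reads MK8618 or MK8619 where the title has MK8617, and titles were followed. No label says whether replicates are separate animals, so the spread behind each p-value may be partly or wholly technical.

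HIF is a pair of proteins, an oxygen-regulated alpha subunit (HIF-1α from Hif1a or HIF-2α from Epas1) and a constitutive partner from Arnt or Arnt2. With oxygen, iron and 2-oxoglutarate at hand, the prolyl hydroxylases PHD2 (Egln1) and PHD3 (Egln3) hydroxylate the alpha subunit, which the von Hippel-Lindau protein (Vhl) then binds for ubiquitination and breakdown by the proteasome. When the hydroxylases are blocked the alpha subunit persists, binds DNA with its partner at a short core motif and activates genes that include Egln1 and Egln3 themselves. In kidney, HIF-1α is known mainly from tubular epithelium and HIF-2α from endothelial and interstitial cells. This control acts on the protein, which RNA sequencing does not measure.

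Levels are given as normalised reads, the authors' gene counts after division by a library size factor, and as FPKM, which also scales by gene length and is used wherever levels of different genes are set side by side. Library totals ran from 16835541 to 17577794 reads in MK-8617 kidneys and from 18620621 to 19508497 reads in IRI kidneys. The members had between 161 and 4470 reads in a library, and all 7 passed the filter on low values. Differences were tested with limma on log2(normalised reads + 1), with Benjamini-Hochberg adjustment over 18811 genes and a threshold of 0.05. The table lists genes whose deposited unadjusted p is at most 0.0499, so shares of called genes describe the table and not the transcriptome. The first principal component held 81.3% of the variance and separated the groups. Of the kidney marker lists, the proximal tubule list (4 of 13 genes listed, 2 higher and 0 lower) summed to 2853 to 3088 CPM (reads scaled to a common library total) in MK-8617 kidneys and 600.5 to 1669 CPM in IRI kidneys. The thick ascending limb list (5 of 6 listed, 1 higher and 3 lower) summed to 1878 to 3011 CPM in MK-8617 kidneys and 1495 to 2444 CPM in IRI kidneys. The podocyte list (2 of 5 listed, both higher, with Nphs1 lost under both trend corrections and without MK-8617 replicate 1) summed to 60.1 to 65.4 CPM in MK-8617 kidneys and 37.2 to 44.2 CPM in IRI kidneys, and the distal tubule and collecting duct list (7 of 13 listed, 2 higher and 2 lower) to 260.6 to 407.2 CPM in MK-8617 kidneys and 317.4 to 339.9 CPM in IRI kidneys. No listed marker of these lists was at 0 in a library. Over all tested genes 35.7% were called higher and 38.7% lower. Marker sums here and below hold only listed genes, which were kept by their p in this same comparison. Markers without an entry may be unchanged, so a gap between groups in these sums is partly fixed by that selection.

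Of the 7 listed members 6 rose in MK-8617 kidneys, 0 fell and 1, Arnt, was not past the threshold. Hif3a, Egln2 and Hif1an may be unchanged, because the table lists genes by their p in this same comparison. These counts are thus partly fixed by that selection. Among the 6961 tested genes 35.7% rose and 74.3% passed in either direction. Log2 fold changes of the 7 members ran from 0.31 to 2.24 with a median of 0.50, against a median of -0.31 over all genes tested. Every MK-8617 library lay above every IRI library in 6 of 7 members, again all but Arnt, and in 44.8% of the tested genes, while 92.5% had no overlap in either direction.

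**Figure D1:**
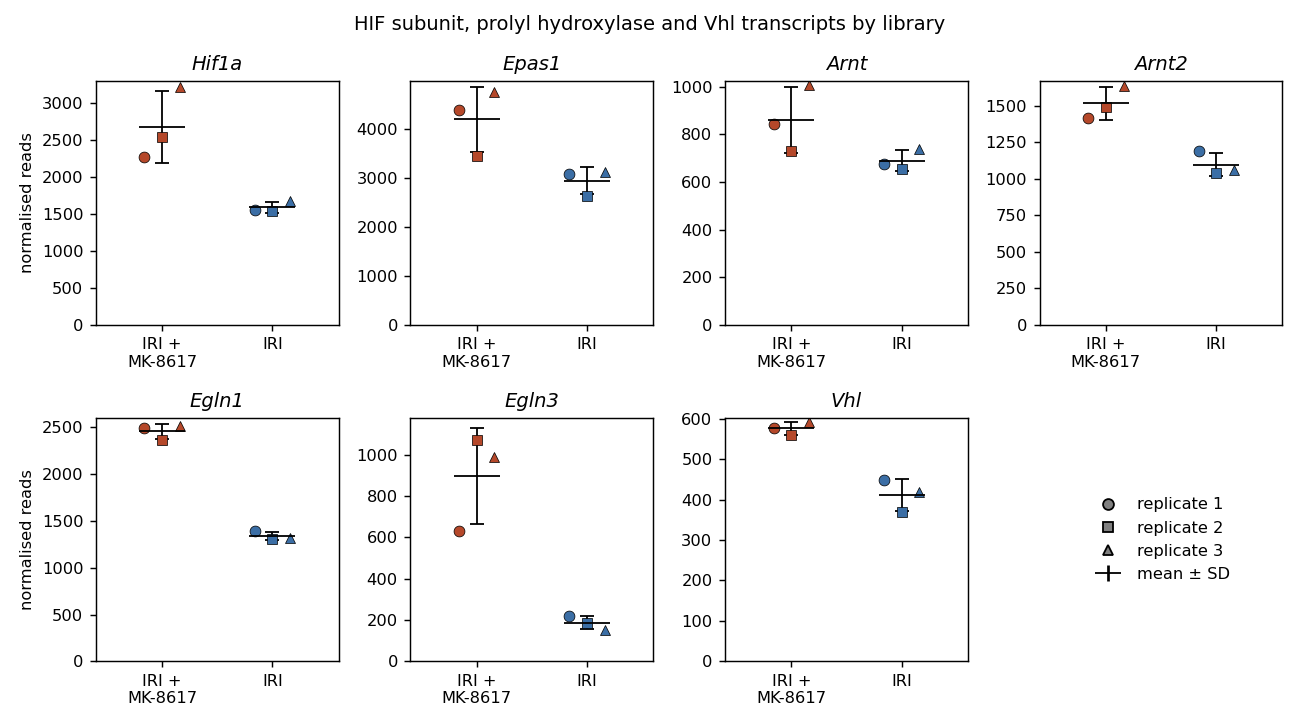
Normalised reads of the 7 listed members in each library, with IRI and MK-8617 at the left of each panel and IRI alone at the right; symbols mark the replicate, and bars the mean and SD of 3 libraries. The groups overlap only for Arnt, and MK-8617 replicate 1 has the lowest Egln3 (633) of its group.

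The prolyl hydroxylase genes had the 2 largest changes among the members. Egln3 had 633, 1073 and 988 normalised reads in MK-8617 replicates 1, 2 and 3, against 218, 188 and 154 in IRI replicates 1, 2 and 3. All MK-8617 libraries were well above the IRI libraries, and MK-8617 replicate 1 was the lowest of its group. The group means were 898 ± 233 in MK-8617 kidneys and 187 ± 31.7 in IRI kidneys (SD, n = 3 each), a ratio of 4.81. The log2 fold change was 2.24 ± 0.21 (SE) with a limma adjusted p of 0.000235, above 98.5% of all tested genes. Without MK-8617 replicate 1 it was 2.47.

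Egln1, the main oxygen sensor of most cells, had 2499, 2367 and 2516 normalised reads in MK-8617 kidneys, against 1392, 1312 and 1324 in IRI kidneys. Replicates lay close together in both groups, with coefficients of variation of 3.31% in MK-8617 kidneys and 3.24% in IRI kidneys. For Egln3 these were 26% in MK-8617 kidneys and 17.0% in IRI kidneys. Egln1 lies at chr8:124908587-124949324 and Egln3 at chr12:54178981-54203860, both on the minus strand (GRCm38). The log2 fold change of Egln1 was 0.87 ± 0.09 with a limma adjusted p of 0.000319, and it stayed between 0.86 and 0.90 when any 1 library was left out.

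The promoter windows of both hydroxylase genes and of Hif1a are shown because these are the members with the largest changes. Motifs were searched from 250 bases before to 50 bases after the RefSeq start (GRCm38.p6). The 250 bases before the start are printed, each 5′ to 3′ on the gene's strand, with capitals for every ACGTG or GCGTG, the HIF core motif, on either strand.
Egln3, chr12:54203875-54204124 (minus strand): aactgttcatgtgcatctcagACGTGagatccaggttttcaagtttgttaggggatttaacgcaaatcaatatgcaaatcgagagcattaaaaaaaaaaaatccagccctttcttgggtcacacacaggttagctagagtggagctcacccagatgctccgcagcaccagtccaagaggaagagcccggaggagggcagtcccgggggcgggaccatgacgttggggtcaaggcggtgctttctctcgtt
Egln1, chr8:124949255-124949504 (minus strand): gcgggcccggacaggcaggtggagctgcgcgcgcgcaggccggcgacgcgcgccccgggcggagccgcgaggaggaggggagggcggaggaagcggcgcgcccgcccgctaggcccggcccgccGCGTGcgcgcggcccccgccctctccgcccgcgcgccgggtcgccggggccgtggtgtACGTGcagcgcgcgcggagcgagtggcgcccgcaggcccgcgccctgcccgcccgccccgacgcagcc
Hif1a, chr12:73907617-73907866 (plus strand): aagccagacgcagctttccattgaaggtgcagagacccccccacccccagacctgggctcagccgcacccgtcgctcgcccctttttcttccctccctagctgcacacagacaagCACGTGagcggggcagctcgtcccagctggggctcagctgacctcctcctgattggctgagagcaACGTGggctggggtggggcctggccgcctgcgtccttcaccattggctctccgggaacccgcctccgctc
The Egln3 window held 1 match, an ACGTG that begins 229 bases before the start. The Egln1 window held 2, a GCGTG at 126 bases and an ACGTG at 68 bases before the start. The Hif1a window held 3 matches, of which 2 are the overlapping strands of the palindrome CACGTG and the other begins 70 bases before the start. Arnt had 1 match (GCGTG, 29 bases before the start), Arnt2 and Vhl had 0, and no window was matched for Epas1. The RefSeq start of Hif1a used here lies inside the annotated GENCODE gene, downstream of its first base. Such a match is common, since 43.8% of the 32851 promoter windows held at least 1, and it is a match of letters, not a measured binding site. The whole Egln1 window is 86.0% G and C and the Egln3 window 54.7%.

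Egln3 took a larger share of the summed Egln1 and Egln3 transcripts in every MK-8617 library than in any IRI library. Egln2 had no entry, so its level is unknown and it is not in this sum. In FPKM, Egln3 stood at 13.2, 22.3 and 20.7 in MK-8617 kidneys, against 4.62, 3.97 and 3.25 in IRI kidneys. Egln1 stood at 38.6, 36.5 and 39.1 FPKM in MK-8617 kidneys, against 21.9, 20.5 and 20.6 FPKM in IRI kidneys. Egln3 made up 25.5%, 38.0% and 34.6% of their summed FPKM in MK-8617 kidneys, and 17.4%, 16.2% and 13.6% in IRI kidneys. The sum itself was 56.8 ± 4.36 FPKM in MK-8617 kidneys and 25.0 ± 1.37 FPKM in IRI kidneys. The log2 ratio of Egln3 to Egln1 within a library was -1.06 ± 0.44 in MK-8617 kidneys and -2.43 ± 0.22 in IRI kidneys, a difference of 1.37 with no overlap between groups. Its exact two-sided permutation p was 0.1, the smallest that 3 against 3 libraries can give (0.15 adjusted over the 3 ratios tested).

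**Figure D2:**
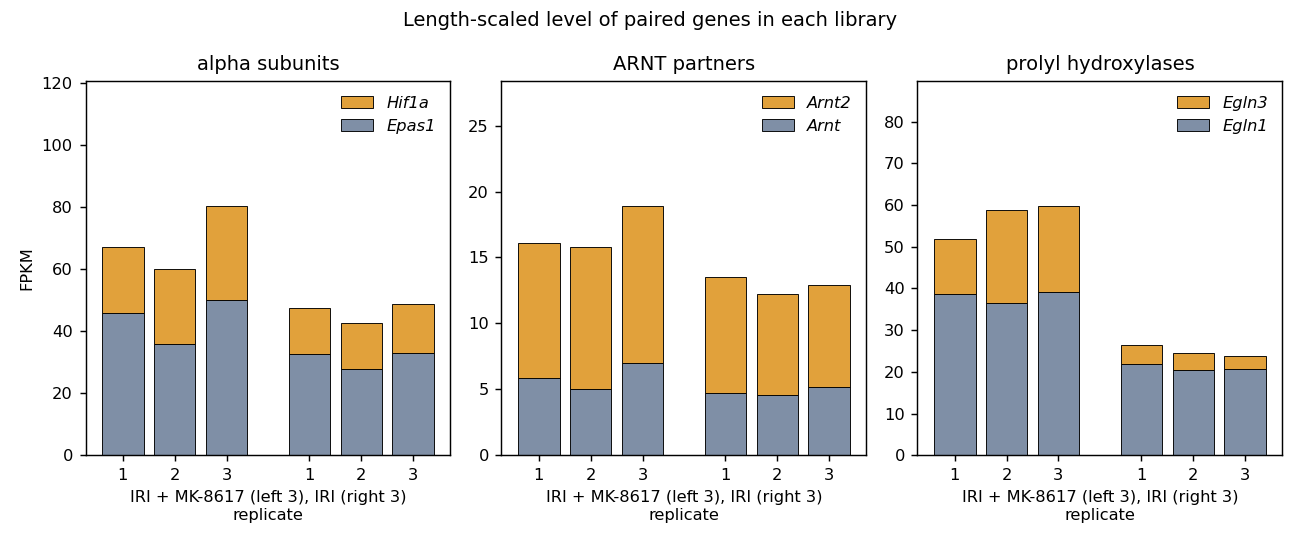
Stacked FPKM of the alpha subunit, ARNT and prolyl hydroxylase pairs in each of the 6 libraries, IRI with MK-8617 left and IRI alone right. The sum of Egln1 and Egln3, without Egln2, is 51.8 to 59.8 FPKM in MK-8617 kidneys and 23.9 to 26.5 FPKM in IRI kidneys. The Egln3 share of it is larger in the MK-8617 libraries.

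Both alpha subunit transcripts were higher in MK-8617 kidneys. Hif1a lies at chr12:73901375-73947530 and Epas1 at chr17:86753700-86833410, both on the plus strand. Hif1a had 2269, 2551 and 3219 normalised reads in MK-8617 kidneys, against 1554, 1545 and 1678 in IRI kidneys. The MK-8617 libraries were spread more widely (SD 488) than the IRI libraries (SD 74.1), and the groups did not overlap. The log2 fold change was 0.74 ± 0.13 with a limma adjusted p of 0.00402, and it ran from 0.60 to 0.85 when 1 library was left out. An annotated antisense gene, Gm15283, shares exon positions with Hif1a on the opposite strand, and so does Gm49321 on the same strand. The labels do not describe the library kit as strand-specific, so reads in the shared parts cannot be assigned with certainty. Gm15283 had 37, 39 and 38 reads in MK-8617 kidneys, against 15, 8 and 4 in IRI kidneys, while Hif1a had at least 1642 reads in any library.

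Epas1 had 4378, 3455 and 4753 normalised reads in MK-8617 kidneys, against 3081, 2625 and 3114 in IRI kidneys. MK-8617 replicate 2 was the nearest to the IRI libraries but above all of them, and the log2 fold change was 0.50 ± 0.14 (limma adjusted p = 0.0249). This call was the least stable among the 6. It was lost on leaving out MK-8617 replicate 1 (0.47) or 3 (0.41), or IRI replicate 1 (0.54) or 2 (0.42), where adjusted p ran up to 0.0956, and with a transcript length trend (0.29) or length and GC trends (0.35) removed.

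Epas1 is abundant in endothelium, and in bulk tissue a change in the number of such cells and a change in RNA per cell cannot be told apart. Of 17 endothelial markers 6 were listed, of which Sox18, Nostrin and Flt1 rose and Esam, Emcn and Ptprb were not past the threshold. Over all tested genes 35.7% rose and 38.7% fell. The summed level of the 6 markers was 427, 393 and 509 CPM in MK-8617 replicates 1, 2 and 3, against 338, 274 and 344 CPM in the IRI replicates. The other endothelial markers had no entry and are not in the sum. None of the 6 was at 0 in any library. Within each group the order of the libraries by this sum was the order by Epas1, with replicate 3 highest and replicate 2 lowest. Without Flt1, which is also a HIF target, the sums were 245, 238 and 290 CPM in MK-8617 kidneys and 238, 200 and 232 CPM in IRI kidneys. The groups then overlapped, and in IRI kidneys replicate 1 was highest, unlike the order by Epas1. Interstitial cells also express it, and of 13 fibroblast and pericyte markers 9 were listed, of which 2 rose and 7 fell, with sums of 488.5 to 563.6 CPM in MK-8617 kidneys and 1106 to 1900 CPM in IRI kidneys. The part of either cell type in the Epas1 result was not tested.

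Tubular cells and leukocytes both express Hif1a. The marker counts that follow stand beside 35.7% of all tested genes that rose and 38.7% that fell. Of the 4 listed proximal tubule markers 2 rose and 0 fell, and of the 5 listed thick ascending limb markers 1 rose and 3 fell. Of 13 macrophage and monocyte markers 10 were listed, of which 8 fell and 0 rose, with a summed level of 65.3 to 87.2 CPM in MK-8617 kidneys and 155.5 to 316.4 CPM in IRI kidneys. The neutrophil markers S100a8 and S100a9, the only 2 of 10 listed, both fell. No listed marker of either list was at 0 in a library. No lymphocyte marker (0 of 9) was among the listed genes. The part of these cell types in the Hif1a result was not tested.

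The proportion of the alpha transcripts overlapped between the groups. Hif1a made up 31.8%, 39.9% and 37.9% of the summed Hif1a and Epas1 FPKM in MK-8617 kidneys, against 31.2%, 34.6% and 32.7% in IRI kidneys. The log2 ratio of Hif1a to Epas1 differed by 0.23, with an exact two-sided permutation p of 0.3 (0.3 adjusted over the 3 ratios). Without MK-8617 replicate 1 the difference was 0.38 and the groups did not overlap, so the overlap rests on that library, and without MK-8617 replicate 2 it was 0.13. With 3 libraries a group this does not show that the balance was the same.

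The partner genes Arnt2 (chr7:84246278-84410176, minus strand) and Arnt (chr3:95434388-95497240, plus strand) had log2 fold changes below those of Hif1a and Egln1, with no test between genes. Arnt2, which pairs with HIF-1α and with other factors of the same family, had 1417, 1492 and 1639 normalised reads in MK-8617 kidneys, against 1188, 1042 and 1062 in IRI kidneys, and the groups did not overlap. Its log2 fold change was 0.47 ± 0.10 with a limma adjusted p of 0.00976. An antisense gene, Gm30873, shares exon positions with Arnt2 and had no entry in the table. Arnt, the general partner, had 845, 731 and 1006 normalised reads in MK-8617 kidneys, against 674, 656 and 740 in IRI kidneys. MK-8617 replicate 2 lay below IRI replicate 3, and the log2 fold change of 0.31 ± 0.13 had a limma adjusted p of 0.121. DESeq2 on the recovered reads, with size factors estimated from the listed genes alone, gave Arnt 0.41 with an adjusted p of 0.0487. With the deposited size factors edgeR gave Arnt 0.32 with an adjusted p of 0.111. In FPKM, Arnt2 stood above Arnt in every library. It made up 64.8 ± 2.77% of their sum in MK-8617 kidneys and 62.3 ± 2.41% in IRI kidneys. FPKM divides by all annotated exon bases, 8007 for Arnt and 7689 for Arnt2. The transcripts used for the length trend have 2699 and 6151 bases, so this order and share depend on the length used. Arnt2 relative to Hif1a was lower in MK-8617 kidneys by a log2 ratio difference of -0.27, without overlap (exact two-sided permutation p = 0.1, or 0.15 adjusted over the 3 ratios). The gap was narrow, with MK-8617 replicate 1 at -1.06 and IRI replicate 3 at -1.04. Leaving out 1 library gave differences of -0.34 to -0.19, with an exact permutation p of up to 0.2.

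Vhl (chr6:113623959-113631633, plus strand), the recognition subunit of the ubiquitin ligase, had 576, 560 and 591 normalised reads in MK-8617 kidneys, against 449, 370 and 418 in IRI kidneys, with no overlap. Its log2 fold change was 0.49 ± 0.12 with a limma adjusted p of 0.0137. Without MK-8617 replicate 1 the adjusted p was 0.053.

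By FPKM the order of the members in MK-8617 kidneys was Epas1 (43.9 ± 7.17), Egln1 (38.1 ± 1.40), Hif1a (25.3 ± 4.70), Egln3 (18.7 ± 4.86), Arnt2 (11 ± 0.857), Vhl (10.7 ± 0.334) and Arnt (5.98 ± 0.986). The pairs Epas1 and Egln1, Hif1a and Egln3, and Arnt2 and Vhl each overlapped between libraries. In IRI kidneys the order was Epas1 (31.2 ± 2.89), Egln1 (21.0 ± 0.754), Hif1a (15.2 ± 0.651), Arnt2 (8.03 ± 0.607), Vhl (7.74 ± 0.760), Arnt (4.85 ± 0.295) and Egln3 (3.95 ± 0.687). There Arnt2 and Vhl overlapped, and so did Arnt and Egln3. By FPKM, Egln3 was thus the lowest member in IRI kidneys and stood above Arnt2, Vhl and Arnt in every MK-8617 library. FPKM divides Arnt by 8007 annotated exon bases, while its transcript of 2699 bases would place it higher. Its order against Arnt2 and Vhl, and against Egln3 in some MK-8617 libraries, therefore depends on the length used.

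The authors' deposited table gave log2 fold changes of 2.27 for Egln3, 0.87 for Egln1, 0.75 for Hif1a, 0.51 for Epas1, 0.48 for Vhl, 0.47 for Arnt2 and 0.32 for Arnt. In the authors' deposited table the adjusted p was below 0.05 for 6 of these 7, all higher, and 0.123 for Arnt. Of the 18811 genes that the deposited adjustment covered, 14.2% were higher with an adjusted p below 0.05, and 30.1% passed in either direction.

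Transcript length moved with the comparison. Among the shortest of 5 equal bins of tested genes (transcript of 57 to 1322 bases) the median log2 fold change was -0.74, and in the longest bin (4639 to 40378 bases) it was 0.40. Hif1a (4724 bases), Epas1 (5516) and Arnt2 (6151) belong to that longest bin, so the 0.50 of Epas1 and the 0.47 of Arnt2 lie close to its median. Egln1 (3594 bases) falls in the next shorter bin, with a median of 0.38, and Egln3 (2662), Vhl (2792) and Arnt (2699) in the middle one, with a median of -0.28. Removing the length trend put the median of all tested genes at -0.13. Egln3 was then at 2.17, Egln1 at 0.72, Hif1a at 0.53 and Vhl at 0.41, all still past the threshold, while Epas1 (0.29) and Arnt2 (0.24) were not. With length and GC trends removed together, Hif1a was at 0.45, Arnt2 at 0.31 and Epas1 at 0.35, and Epas1 alone of these 3 was not past the threshold. The part of transcript length in these changes was not tested beyond this.

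**Figure D3:**
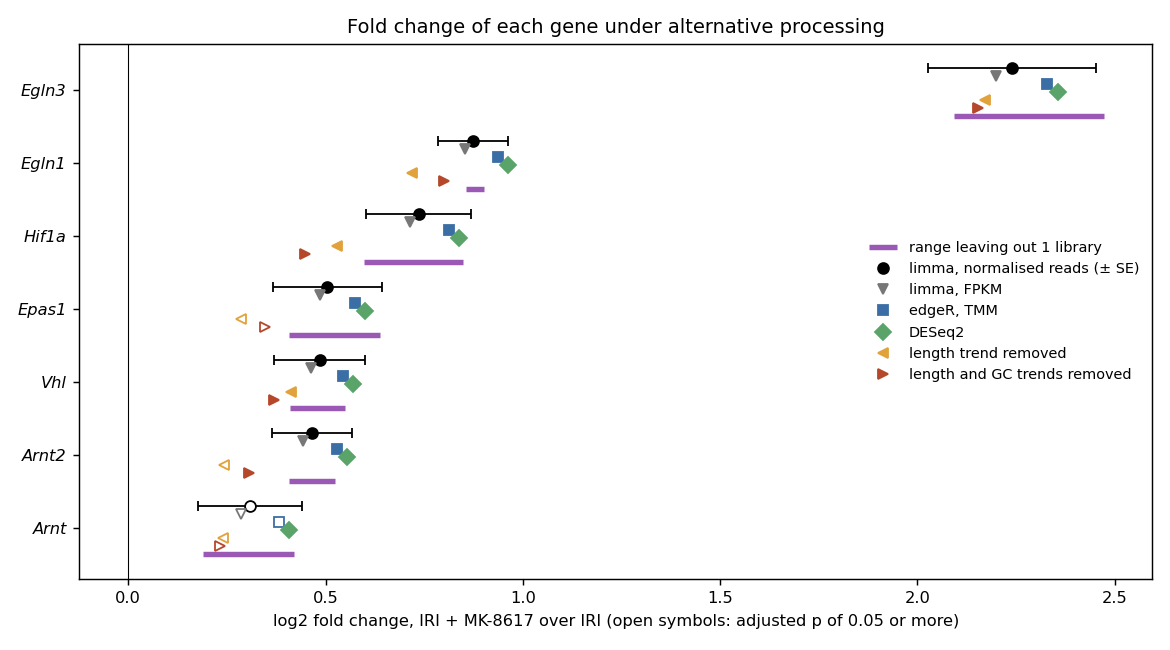
Log2 fold change of each member (IRI with MK-8617 over IRI) under alternative processing, with the SE on the main value, open symbols where the adjusted p was 0.05 or more, and purple bars for the range when 1 library is left out. Every value is above 0, Egln3 stays above 2, and open symbols occur for Epas1, Arnt2 and Arnt.

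Genes that act on HIF turnover or activity went both ways. Of 26 genes 17 were tested, of which 6 rose and 10 fell, against 35.7% and 38.7% of all tested genes. The list median was -0.45. Among the partners of Vhl in its ligase, the scaffold gene Cul2 rose by 0.33 ± 0.11 on the log2 scale, a call lost under both length corrections (0.15 and 0.07), on FPKM (0.31) and on leaving out any library other than IRI replicate 1 (0.29 to 0.37). It was also lost with the replicate block (adjusted p = 0.069), the 5 CPM filter (adjusted p = 0.0571) and edgeR with the deposited size factors (adjusted p = 0.0502). The RING subunit gene Rbx1 had 1451 ± 81.1 normalised reads in MK-8617 kidneys and 2364 ± 200 in IRI kidneys (-0.70 ± 0.10). Nedd8, the modifier that activates cullins, had -1 ± 0.11, which the length correction brought to -0.58 and the length and GC correction to -0.49, both still past the threshold. Of 3 genes named after their values were seen, the NEDD8-conjugating enzyme Ube2m had -0.63 ± 0.11 and the adaptors Elob and Eloc -0.77 ± 0.12 and -0.62 ± 0.12. With the length trend removed Elob was at -0.14 and no longer past the threshold, while Eloc was at -0.66 and past it.

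Ep300 (0.66 ± 0.10) and Crebbp (0.80 ± 0.12), which encode the acetyltransferases p300 and CBP that the alpha subunits recruit, rose. With the length trend removed Ep300 was at 0.42, still past the threshold. Zmynd8 (0.42 ± 0.14, limma adjusted p = 0.0524) and Ncoa3 (0.29 ± 0.12, limma adjusted p = 0.102) are further coactivator genes, named after their values were seen. Neither passed with limma, and both did with DESeq2. With edgeR on the deposited size factors neither passed (adjusted p of 0.0537 and 0.0947). Cited2, a HIF-induced competitor for p300 binding, had 1805 ± 120 normalised reads in MK-8617 kidneys and 799 ± 50.1 in IRI kidneys, a change of 1.17 ± 0.10 with a limma adjusted p of 0.00014. Siah1a, a ligase that targets prolyl hydroxylases, rose by 0.58 ± 0.15 and Usp33, a deubiquitinase bound by the VHL protein, by 0.79 ± 0.17. The Siah1a call was lost on leaving out any library other than IRI replicate 3 (0.50 to 0.61) and with length and GC trends removed (0.54). Usp20, the relative of Usp33 that also binds the VHL protein, named after its value was seen, fell (-0.87 ± 0.14).

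The HIF hydroxylases belong to the 2-oxoglutarate-dependent dioxygenases, and the other tested genes of this enzyme class were mostly higher. Of 53 genes 24 were tested, of which 20 rose and 3 fell, against 35.7% and 38.7% of all tested genes. The list median was 0.59. Dioxygenase genes without an entry were not tested and may be unchanged, because the table lists genes by their p in this same comparison. The collagen-modifying enzyme genes Plod2 and P4ha2 rose by 1.53 ± 0.11 and 1.15 ± 0.09, and the histone demethylase gene Kdm3a by 1.24 ± 0.11. The HIF target list also holds these 3 and Kdm4b, so the lists are not independent. The members that fell were P3h3, a collagen prolyl 3-hydroxylase (-0.98 ± 0.13), Ogfod2 (-0.44 ± 0.13) and Alkbh7 (-0.49 ± 0.16). The calls of Ogfod2 and Alkbh7 were both lost with edgeR, DESeq2 and limma-voom, under both trend corrections, where Alkbh7 was at -0.10 and -0.02 and Ogfod2 at -0.36 and -0.23, and in 4 of 6 (Ogfod2) and 5 of 6 (Alkbh7) runs without 1 library. Ogfod2 was also lost with the replicate block (adjusted p = 0.0559) and Alkbh7 under the 5 CPM filter (adjusted p = 0.056). With the length trend removed 12 of the list rose, against 1787 of all 6961 tested genes, with a list median of 0.37. P3h3 and P3h1 (-0.44) fell in that run, of which P3h1 had not passed before (-0.35). Without MK-8617 replicate 1 the number of the list that rose was also 12, against 1488 of all tested genes. Among genes that supply or use 2-oxoglutarate and its products, 8 of 24 were tested. Of these 4 were higher and 2 lower, against 35.7% and 38.7% of all tested genes. Fh1, fumarate hydratase, had 7326 ± 485 normalised reads in MK-8617 kidneys and 2568 ± 355 in IRI kidneys (1.52 ± 0.13), and Glud1, glutamate dehydrogenase, rose by 1.15 ± 0.12. Suclg2, a succinate-CoA ligase subunit, rose by 0.46 ± 0.10 (0.31 with length and GC trends removed), while Sdhd, a succinate dehydrogenase subunit (-0.72 ± 0.11), and Idh3a, an isocitrate dehydrogenase subunit (-0.44 ± 0.10), fell.

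**Figure D4:**
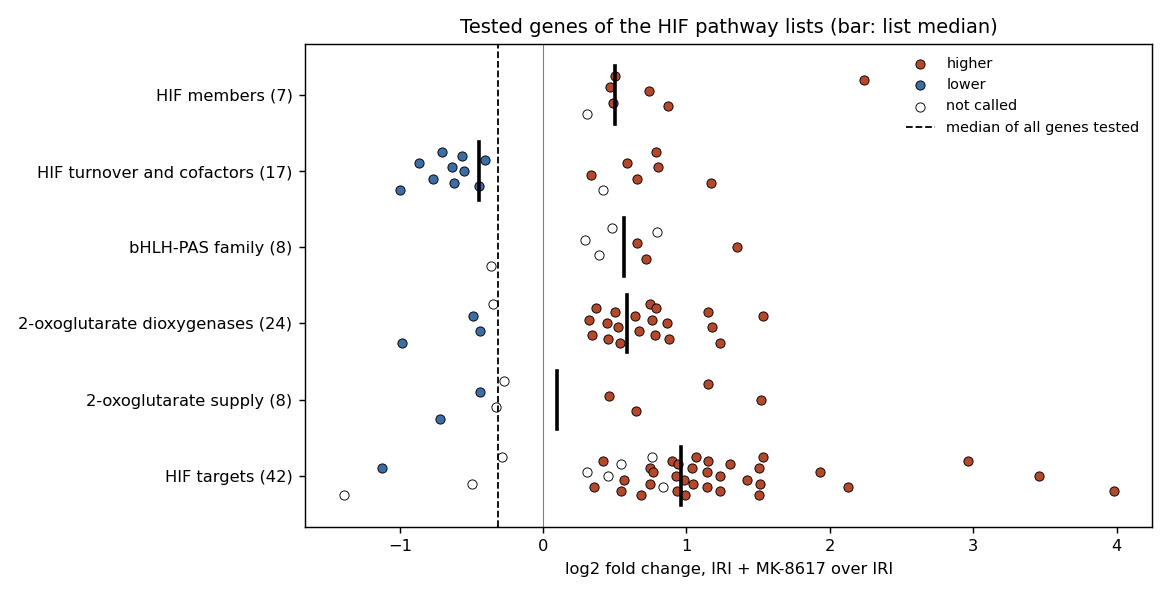
Log2 fold change (IRI with MK-8617 over IRI) of each tested gene of 6 lists, with the number tested in brackets, colour for the call, a bar at each list's median and a dashed line at the median of all tested genes (-0.31). The members and the HIF targets lie mostly to the right, with list medians of 0.50 and 0.96, and the turnover list falls on both sides.

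Relatives of the HIF subunits in the bHLH-PAS family and their cofactors were mostly not among the listed genes. Of 20 genes 8 were tested, of which 3 rose and 0 fell, with a median of 0.57. The 3 that rose are 37.5% of those tested, close to the 35.7% over all tested genes. Npas2, a clock factor, rose by 1.35 ± 0.29, the coactivator gene Ncoa2 by 0.66 ± 0.11 and Tiparp, a target of the aryl hydrocarbon receptor, by 0.72 ± 0.16. The Tiparp call was lost with length and GC trends removed (0.43) and without MK-8617 replicate 1 (0.63) or 3 (0.65). The clock gene Per2 was at 0.39 ± 0.13 with an adjusted p of 0.0543. DESeq2 on the recovered reads, with size factors from the listed genes, called 7 of the 8 higher. With the deposited size factors edgeR called 3 higher.

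HIF target genes other than Egln1 and Egln3 numbered 55, of which 42 were tested. Of these 33 rose and 1, the carbonic anhydrase gene Car12, fell (-1.13 ± 0.19), against 35.7% and 38.7% of all tested genes. Targets without an entry were not tested and may be unchanged, because the table lists genes by their p in this same comparison. On the log2 scale the tested targets had a median of 0.96, so Egln3 lay above this median and Egln1, at 0.87, below it. The mitophagy receptor gene Bnip3 rose by 2.96 ± 0.14, its paralogue Bnip3l by 1.51 ± 0.09 and the phosphofructokinase gene Pfkl by 1.93 ± 0.10.

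Across the 6 libraries the genes most like each member by Pearson's r of log2(normalised reads + 1) were taken as a description, in which the gap between the 2 groups enters r. For Egln3 these were Gapdhs, Ralgapa2 and Gpr137c (r of 0.997 each to 3 digits), and 544 tested genes had an r above 0.95. For Egln1 they were Pex26, Abcd3 and Cd46 (r = 0.998 each), with 923 genes above 0.95. Once group means were taken out, r was 0.947 to 0.979 for the Egln3 genes and 0.72 to 0.88 for the Egln1 genes. Those closest to Hif1a were Adgrl2, Klf3 and Zc3h12a (r of 0.996 to 0.997), and to Epas1 Dennd4c, Mtmr3 and Tmem170b (0.997 to 0.998), with 319 and 240 genes above 0.95. Arnt2 was closest to Gpam and Fam8a1 (0.997 to 0.999), Vhl to Scaf4, Coro2b and mt-Ty (0.997 to 0.998) and Arnt to Pdpk1, Ptpro and Mob1b (0.989 to 0.994).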

How the data were processed

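Gene expression in 6 mouse kidney samples was taken from 1 deposited table. The labels name kidney, while the series' design text speaks of tumors, and the labels were followed. Per the labels' protocols, RNA was isolated with TRIzol and libraries made with the NEBNext Ultra RNA kit. The submitters' processing notes name DESeq2 1.20.0, featureCounts 1.5.0-p3, HISAT2 2.0.5, fastp and CASAVA 1.8. Those notes name GRCh38 (hg38), while the table's identifiers are mouse Ensembl identifiers. The signal columns, as deposited, hold counts scaled by each library's size factor (0.937 to 1.10). Whole reads were recovered for 100% of values (tolerance 0.001) and equalled the deposited raw count of IRI replicate 3 in 7340 of 7340 genes. FPKM was computed by the authors per gene length and library total, and recovered reads and GENCODE M21 (GRCm38) exon lengths gave each library's total. The log2 fold changes and p-values deposited by the authors served for comparison only. Their adjusted p-values fix the number of genes adjusted over at 18811, and 11560 of these have no entry in the table.

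limma 3.58.1 (trend, robust, R 4.3.3) was fitted on log2(value + 1), after filterByExpr of edgeR 4.0.16 had removed 379 genes and left 6961. The added 1 understates fold changes of low genes. The script was tested on simulated data. Alternatives were other pseudocounts (0.5 and 5), no filter, a mean of at least 5 CPM, FPKM (pseudocount 0.1), limma-voom, edgeR and DESeq2 1.42.0 on recovered reads, loess removal of length and GC trends from each library, each library left out, a replicate block and, added after the data were seen, edgeR with the deposited size factors. Ratios used exact permutation tests over libraries, for which the smallest possible p is 0.1. Replicates differed by more than sampling noise (chi-square per degree of freedom 16.8 to 46.4).

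Members and gene lists were chosen with earlier results of these data known. Named list genes were the 4 with the smallest adjusted p per list and those called against their list's majority. Likeness was ranked by Pearson's r, leaving out predicted symbols, and 1 gene of that ranking is not reported here. Promoter windows are from RefSeq, with 6 of 7 members matched.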

Additional observations from a re-analysis of the deposited data

How the results depend on the processing

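Of 369 recomputed values of 22 results 338 kept their direction and their side of the threshold, or stayed within 1.5 times of a count, and 0 reversed. The ratios among them were compared by direction alone. The calls of Egln3, Egln1 and Hif1a held under every alternative run. With the length trend removed Epas1 (0.29) and Arnt2 (0.24) were no longer past the threshold, nor was Epas1 with length and GC trends removed (0.35). Arnt passed it with DESeq2 (0.41) but not with edgeR on the deposited size factors (0.32). Leaving out 1 library gave 0.41 to 0.64 for Epas1, lost in 4 of 6 cases, and 0.41 to 0.55 for Vhl, lost without MK-8617 replicate 1. With 1 library left out the number of genes called higher ran from 1488 to 2446. It was 1488 without MK-8617 replicate 1 and 1618 without MK-8617 replicate 3. With edgeR, limma-voom and DESeq2 the counts were 2875, 2894 and 3089 higher and 2333, 2252 and 2313 lower. Higher calls thus outnumbered lower ones there, against 2482 higher and 2691 lower with limma. These 3 runs estimated normalisation factors from the listed genes alone, and their median log2 fold change shifted by 0.0627, 0.0633 and 0.0875. With the deposited size factors edgeR gave 2406 higher and 2675 lower.

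Among the lists, dioxygenases that rose numbered 12 under either trend correction and 12 to 18 with 1 library left out. Those that fell numbered 1 with DESeq2, edgeR, limma-voom or length and GC trends removed, and 1 to 2 with 1 library left out. HIF targets that fell numbered 2 under either trend correction and 1 to 2 with 1 library left out. In the bHLH-PAS list 7 rose with DESeq2 and 5 with the replicate block, and 2 to 5 with 1 library left out. There 1 fell under either trend correction and with the replicate block, and 0 to 1 with 1 library left out.

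Deviations of samples with the same replicate number had correlations of 0.0206, 0.116 and 0.115 for numbers 1, 2 and 3. The highest correlations with a different number were 0.0132, 0.0198 and -0.0387. No label states that replicate numbers pair samples, so the numbers were not taken as pairs. With the replicate block Epas1 was at 0.50 (adjusted p = 0.0113) and Egln3 at 2.24 (adjusted p = 0.00102), and no member's call changed. The lowest read count of a member in a library was 161 (Egln3). Each group has 3 libraries.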

Other observations

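Gm15283, the gene annotated antisense to Hif1a and looked at because of that overlap, rose by a log2 fold change of 2.27 ± 0.46 (limma adjusted p = 0.00679). It averaged 40.0 ± 1.89 normalised reads in MK-8617 kidneys and 8.44 ± 5.28 in IRI kidneys (SD, n = 3 each). The log2 fold change of Hif1a was 0.74. Because strand was not stated to be counted, its reads and those of Hif1a cannot be told apart where exons share positions.

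Members did not all vary together within the MK-8617 group. Relative to the group mean on the log2 scale, MK-8617 replicate 1 was at -0.47 for Egln3 and -0.22 for Hif1a, but at 0.07 for Epas1 and 0.02 for Egln1. MK-8617 replicate 2 was at 0.29 for Egln3 and at -0.27 for Epas1 and -0.22 for Arnt. MK-8617 replicate 3 was above the mean for all 7 members, from 0.03 for Egln1 to 0.28 for Hif1a.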
